A study of Mus musculus with 12 samples.

Results

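The 10 genes described here encode molecules with which Treg cells restrain other cells by secretion or killing: the cytokine Il10, the IL-12 family subunits Ebi3 and Il12a, the secreted proteins Fgl2, Areg, Lgals1 and Tfpi, and the granule proteins Gzmb, Gzma and Prf1. They were chosen by name, but with earlier results of these data known. The paper itself reports Il10, Fgl2 and Tfpi as reduced in Lkb1-deficient Treg cells on these arrays, and the same genes as unchanged after Tgfbr2 deletion. The members are thus not an unselected set, and the shares of all transcript clusters given beside their counts are a description only. Of the 10, 9 were found among the 22180 genes with 1 symbol in the array annotation, which names 23521 of 41345 transcript clusters. The transcript cluster of Areg has no symbol there and was named from a list of transcript clusters that accompanies the study, so its values rest on that list. Ebi3 is covered by 2 transcript clusters, and the one with the higher mean over the 12 arrays is used.

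Regulatory T (Treg) cells express the transcription factor Foxp3 and hold back effector T cells. Part of this works through soluble products: IL-10 dampens antigen-presenting and effector cells, IL-35 is a pair of the Ebi3 and Il12a products, fibrinogen-like protein 2 acts through inhibitory Fc receptors, and amphiregulin, an EGF receptor ligand, takes part in tissue repair. Another part works by contact, where perforin opens the target membrane for granzymes. Lkb1 is a serine/threonine kinase encoded by Stk11, and Tgfbr2 encodes the type II receptor for TGF-β.

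RNA of CD4+YFP+ Treg cells from spleen and lymph nodes was measured on 12 Affymetrix Mouse Genome 2.0 arrays, 3 for each genotype. The arrays labelled Foxp3Cre/+Lkb1f/f were set against those labelled Foxp3Cre/+, both labelled female, and those labelled Foxp3CreTgfbr2 f/f against those labelled Foxp3Cre, both labelled male. All groups carry the Foxp3 YFP-Cre allele, which deletes floxed genes in Foxp3-expressing cells, and the labels give no treatment, age or pooling. Foxp3 lies on the X chromosome, so a heterozygous Foxp3Cre/+ female also holds Treg cells that use the intact allele. These cells do not express the Cre allele and are outside the YFP+ gate. The labels call the arrays biological replicates, and p-values measure the spread between these arrays only. Values are log2 values minus the median of the same array, so a difference of 1 is a doubling.

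The arrays fell into sets that the genotypes do not explain. Before centring, 8 arrays had medians of 5.48 to 5.60 (lower-intensity arrays), and 4 arrays had medians of 6.30 to 6.33 (higher-intensity arrays): Foxp3Cre/+Lkb1f/f replicate 3, Foxp3Cre/+ replicate 3, Foxp3CreTgfbr2 f/f replicate 1 and Foxp3Cre replicate 3. These 4 arrays also went against their labelled sex. Xist, transcribed from the inactive X chromosome of females, was at -1.24 on Foxp3Cre/+Lkb1f/f replicate 3 and -0.999 on Foxp3Cre/+ replicate 3, against 4.37 to 5.20 on the other 4 arrays labelled female. It was at 4.70 on Foxp3CreTgfbr2 f/f replicate 1 and 4.54 on Foxp3Cre replicate 3, against -0.93 to -0.40 on the other 4 arrays labelled male. The Y-linked Eif2s3y ran the opposite way on all 12 arrays. Their sex-linked levels are those of the labels of the other pair. In the paper Foxp3Cre/+ mice are heterozygous females. The sex-linked levels of Foxp3Cre/+Lkb1f/f replicate 3 and Foxp3Cre/+ replicate 3 thus go against the labelled genotype too. Whether these 4 arrays were exchanged between the Lkb1 and Tgfbr2 pairs was not tested. Each difference over 3 against 3 arrays thus includes 1 array per genotype whose label is in doubt. Groups are called by their labels, and the differences of the members and of the other genes named are also given on the lower-intensity arrays, 2 per genotype. Foxp3 itself was between 5.59 and 5.88 on all 12 arrays, and within this range it was higher in both knockouts without overlap. It differed by 0.15 in the Lkb1 and 0.13 in the Tgfbr2 comparison, and by 0.18 and 0.13 on the lower-intensity arrays. Among all transcript clusters 1.76% and 2.81% lay wholly above the controls over all arrays.

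The targeted genes separated the labels on the lower-intensity arrays but not over all 12. Such separation is common. On the lower-intensity arrays 14.9% of all transcript clusters lay wholly below the controls in the Lkb1 and 14.3% in the Tgfbr2 comparison. Stk11 was at 2.68, 2.33 and 3.27 on the arrays labelled Foxp3Cre/+Lkb1f/f and at 2.96, 2.90 and 3.15 on those labelled Foxp3Cre/+ (replicates 1, 2 and 3). Tgfbr2 was at 3.55, 2.51 and 2.31 on the arrays labelled Foxp3CreTgfbr2 f/f and at 3.04, 2.71 and 3.48 on those labelled Foxp3Cre, so replicate 1 of the knockout stood above all 3 controls. Without the higher-intensity arrays, both knockout arrays lay below both controls in each case, by -0.43 for Stk11 in the Lkb1 comparison (95% interval -0.95 to 0.09) and -0.47 for Tgfbr2 in the Tgfbr2 comparison (95% interval -0.91 to -0.03). On the same arrays Stk11 differed by 0.20 in the Tgfbr2 comparison and Tgfbr2 by -0.02 in the Lkb1 comparison. Between the single higher-intensity arrays the signs were the other way round. Stk11 differed there by 0.12 in the Lkb1 and -0.26 in the Tgfbr2 comparison, and Tgfbr2 by -0.54 and 0.067. What lies behind this was not tested. How far these values check the labels is not known, since the position of the probes relative to the deleted exons was not given in the sources used here.

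No member passed the test in either comparison, and neither did any other transcript cluster (limma with Benjamini-Hochberg adjustment over 41345 transcript clusters, 0.0% called in each comparison). At an unadjusted p under 0.05, limma gave 462 transcript clusters in the Lkb1 comparison and 706 in the Tgfbr2 comparison. The methods' t-test gave 675 and 902 at the same limit and 0 after adjustment in both. Each of these counts is under a share of 0.05 of the 41345 transcript clusters. That share would pass this limit on average if no transcript cluster differed. All differences below are thus given as measured values with their intervals, with an adjusted p of 1.00 for each member in each comparison. In the Lkb1 comparison 8 of 10 members averaged lower on the arrays labelled Foxp3Cre/+Lkb1f/f, with a median difference of -0.54, beside 53.1% and -0.01 over all transcript clusters. In the Tgfbr2 comparison 6 of 10 averaged lower on the arrays labelled Foxp3CreTgfbr2 f/f, with a median of -0.058, beside 46.9% and 0.01. A mean lower by 1.5-fold or more was measured for 5 members in the Lkb1 comparison (Il10, Areg, Gzma, Gzmb and Fgl2), where 2.2% of all transcript clusters had one, and for 0 in the Tgfbr2 comparison (0.692%). No member was higher by 1.5-fold or more in either (1.53% and 1.49% of all transcript clusters). Areg was named from a list of genes already reported as altered. Its place among the 5 is thus not independent of these arrays.

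Fgl2 was the only member whose arrays did not overlap between genotypes in either comparison over all arrays, and it was lower in both knockouts. Its values were 0.57, 1.09 and 0.83 on the arrays labelled Foxp3Cre/+Lkb1f/f, against 1.44, 1.69 and 1.46 on those labelled Foxp3Cre/+. The highest knockout array thus lay below the lowest control. The difference was -0.70 (95% interval -1.17 to -0.23, limma adjusted p = 1.00, n = 3 per genotype), a 1.62-fold lower mean. Among all transcript clusters, 2.05% had all knockout arrays below all controls, beside 1 of 10 members. For the other knockout, Fgl2 was at 0.96, 0.92 and 1.20 on the arrays labelled Foxp3CreTgfbr2 f/f, against 1.45, 1.48 and 1.26 on those labelled Foxp3Cre. Again no knockout array reached a control, and the difference was -0.37 (95% interval -0.72 to -0.026, limma adjusted p = 1.00, n = 3 per genotype), a 1.29-fold lower mean, where 2.13% of all transcript clusters did not overlap in this direction. The paper reports Fgl2 as unchanged after Tgfbr2 deletion. Its list of alterations used a 1.5-fold change, which this difference does not reach.

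The size of the Fgl2 difference was alike in both intensity sets. On the lower-intensity arrays it was -0.73 in the Lkb1 and -0.41 in the Tgfbr2 comparison, and between the single higher-intensity arrays it was -0.63 and -0.30. Leaving out each array in turn gave -0.83 to -0.57 in the Lkb1 and -0.46 to -0.32 in the Tgfbr2 comparison. An exact permutation test gave a two-sided p of 0.10 in each comparison, the smallest that 3 against 3 arrays allow. Whether the Lkb1 effect was larger than the Tgfbr2 effect could not be told: the difference of the effects was -0.33 (95% interval -0.83 to 0.18).

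The 3 promoters below are shown because they belong to Fgl2, the member with separate arrays, and to Areg and Gzmb, the members that varied most between arrays. Each is the 250 bases before the annotated start in RefSeq for GRCm38.p6 (Fgl2 at chr5:21372423-21372672, plus strand, Areg at chr5:91139349-91139598, plus strand, Gzmb at chr14:56262335-56262584, minus strand), written 5′ to 3′ on the strand of the gene. Of the 10 members 8 had a promoter in the table. Capitals mark every match, on either strand, to 5 motifs. Those of factors considered below are the cyclic AMP response element TGACGTCA, the AP-1 motif TGANTCA, the dioxin response core GCGTG bound by the aryl hydrocarbon receptor and the Maf half-site TGCTGA. The other is the TATA box TATAAA.
Fgl2: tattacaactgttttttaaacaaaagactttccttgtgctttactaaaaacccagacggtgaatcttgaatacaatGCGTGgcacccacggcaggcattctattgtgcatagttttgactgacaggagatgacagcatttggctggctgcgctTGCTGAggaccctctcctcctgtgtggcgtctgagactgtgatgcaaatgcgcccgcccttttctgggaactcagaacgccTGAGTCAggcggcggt
Areg: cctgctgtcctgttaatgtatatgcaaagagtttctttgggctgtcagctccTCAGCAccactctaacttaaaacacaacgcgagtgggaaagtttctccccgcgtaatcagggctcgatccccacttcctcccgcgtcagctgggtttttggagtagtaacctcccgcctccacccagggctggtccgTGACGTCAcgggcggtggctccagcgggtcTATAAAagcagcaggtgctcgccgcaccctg
Gzmb: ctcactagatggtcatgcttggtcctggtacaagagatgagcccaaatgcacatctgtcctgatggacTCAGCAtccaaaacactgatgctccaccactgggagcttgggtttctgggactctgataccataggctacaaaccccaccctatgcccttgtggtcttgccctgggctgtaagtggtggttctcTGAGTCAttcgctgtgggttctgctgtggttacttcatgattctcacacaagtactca
Fgl2 held an AP-1 motif that starts 16 bases before the start, a Maf half-site at 97 and a dioxin response core at 174. Areg held a full cyclic AMP response element at 61, a TATA box at 31 and a Maf half-site on the other strand at 198. Gzmb held an AP-1 motif at 58 and a Maf half-site on the other strand at 182, but no TATA box. Over 32841 promoters of this length, 1.55% hold the cyclic AMP response element, 6.75% the AP-1 motif, 16.1% the Maf half-site, 12.4% the TATA box and 28.2% the dioxin response core. These matches describe letters in a window and show no binding.

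**Figure D1:**
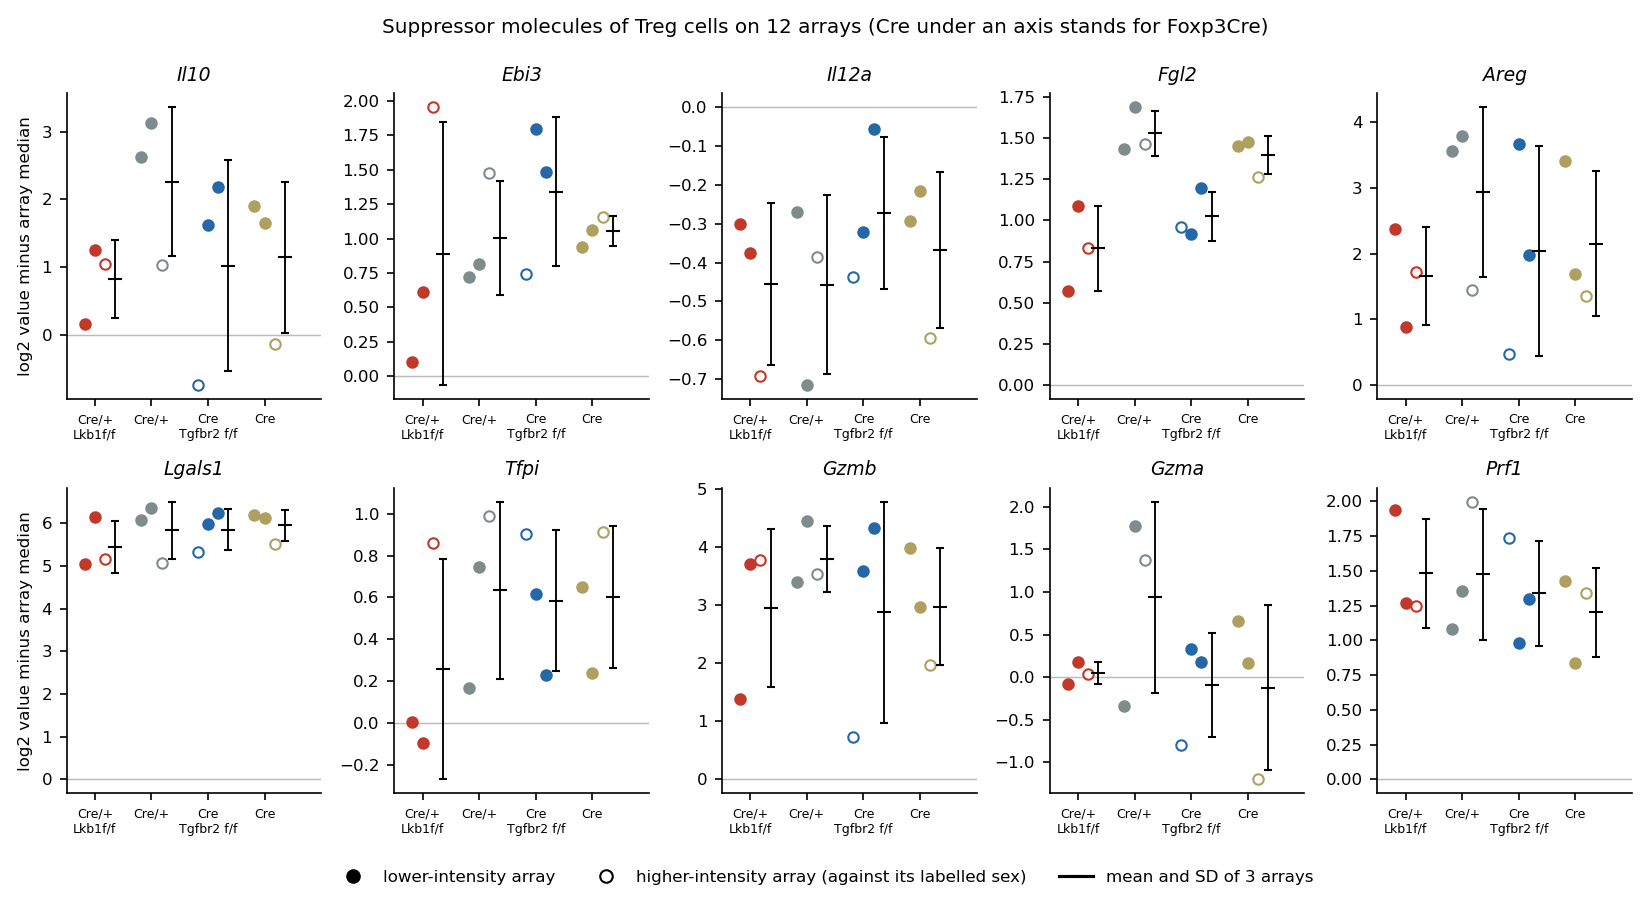
Each panel plots 1 member as log2 value minus array median (y axis) on the arrays of the 4 genotypes (x axis), with filled points for lower-intensity and open points for higher-intensity arrays, and the mean with SD of 3 arrays in black. Only Fgl2 shows knockout arrays below all controls in both comparisons, while Gzmb runs between 0.73 and 4.46 with overlapping genotypes.

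Among the cytokines, Il10 had the largest difference of the 10 members in the Lkb1 comparison. It was at 0.16, 1.25 and 1.05 on the arrays labelled Foxp3Cre/+Lkb1f/f, against 2.63, 3.13 and 1.02 on those labelled Foxp3Cre/+. The overlap lay with the higher-intensity Foxp3Cre/+ array, from which the higher-intensity knockout array differed by 0.02. The difference over all arrays was -1.44 (95% interval -2.79 to -0.095, limma adjusted p = 1.00, n = 3 per genotype). On the lower-intensity arrays it was -2.17 (95% interval -3.26 to -1.09), with both knockout arrays below both controls. In bulk RNA, fewer cells that transcribe a gene and less RNA per cell cannot be told apart.

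In the Tgfbr2 comparison Il10 was at -0.74, 1.62 and 2.18 on the arrays labelled Foxp3CreTgfbr2 f/f, against 1.90, 1.65 and -0.13 on those labelled Foxp3Cre. The low arrays of both genotypes were the higher-intensity ones, and the other 4 arrays lay within 1.62 to 2.18. The difference was -0.12 (95% interval -2.13 to 1.89) over all arrays and 0.13 (95% interval -0.47 to 0.72) on the lower-intensity arrays. The Lkb1 effect minus the Tgfbr2 effect on Il10 was -1.32 (95% interval -3.82 to 1.18) over all arrays and -2.30 (95% interval -3.58 to -1.02, adjusted p = 0.69 from limma, 8 arrays) on the lower-intensity arrays.

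Ebi3, the subunit shared by IL-27 and IL-35, was at 0.11, 0.61 and 1.95 on the arrays labelled Foxp3Cre/+Lkb1f/f, against 0.72, 0.82 and 1.48 on those labelled Foxp3Cre/+. Its highest value in each group was on the higher-intensity array, and the difference was -0.11 (95% interval -1.26 to 1.03) over all arrays and -0.41 (95% interval -1.02 to 0.20) on the lower-intensity arrays. On the Tgfbr2 side it was at 0.74, 1.79 and 1.49 on the arrays labelled Foxp3CreTgfbr2 f/f, against 0.94, 1.06 and 1.16 on those labelled Foxp3Cre. Here the 2 lower-intensity knockout arrays stood above every control and the higher-intensity one below, for a difference of 0.29 (95% interval -0.35 to 0.93) over all arrays and 0.64 (95% interval 0.23 to 1.05) on the lower-intensity arrays. The second Ebi3 transcript cluster lay below the array median in each group mean and differed by 0.22 in the Lkb1 and 0.006 in the Tgfbr2 comparison.

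Il12a, the p35 subunit of IL-12 and IL-35, was the least variable member, with an SD of 0.20 over 12 arrays. It lay below the array median on all 12 arrays, between -0.72 and -0.06. Whether the probes stood above background there is not known from these values. Its differences were 0.001 (95% interval -0.48 to 0.48) in the Lkb1 comparison, where quantile normalization turned the sign, and 0.10 (95% interval -0.31 to 0.50) in the Tgfbr2 comparison, and 0.16 and 0.066 on the lower-intensity arrays. None of the 3 other IL-12 family subunits separated over all arrays. Il12b, the p40 partner of Il12a, differed by 0.03 in the Lkb1 and 0.17 in the Tgfbr2 comparison, and Il27, the p28 partner of Ebi3, by -0.15 and -0.13. These were 0.069 and 0.20 for Il12b and -0.17 and -0.23 for Il27 on the lower-intensity arrays.

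**Figure D2:**
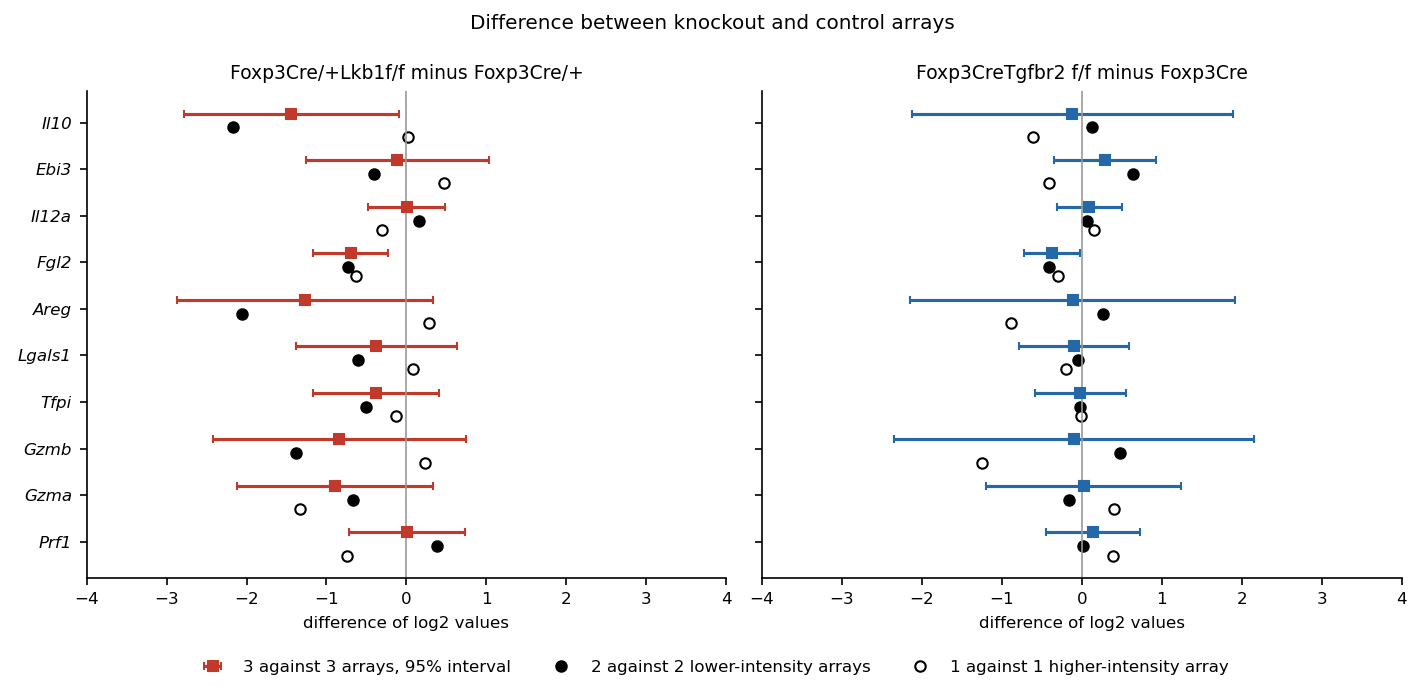
Squares give the difference of group means of each member on the log2 scale (x axis) with its 95% interval over 3 against 3 arrays, filled circles the difference on the lower-intensity arrays, and open circles the difference between the single higher-intensity arrays. For Fgl2 and Tfpi all 3 measures lie below 0 in both comparisons, though for Tfpi they lie close to 0 in the Tgfbr2 comparison. For Il10, Ebi3, Areg and Gzmb the open circles lie on the other side of 0 from the filled ones in both comparisons.

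Areg, the EGF family ligand, was at 2.37, 0.88 and 1.72 on the arrays labelled Foxp3Cre/+Lkb1f/f, against 3.56, 3.79 and 1.44 on those labelled Foxp3Cre/+. As with Il10, the higher-intensity control was as low as the knockout arrays. The difference was -1.27 (95% interval -2.87 to 0.33) over all arrays and -2.05 (95% interval -3.38 to -0.73) on the lower-intensity arrays. Between the Tgfbr2 genotypes Areg spread widely within each genotype, at 0.47, 3.66 and 1.97 on the arrays labelled Foxp3CreTgfbr2 f/f and at 3.41, 1.69 and 1.35 on those labelled Foxp3Cre. The difference was -0.12 (95% interval -2.15 to 1.92) over all arrays and 0.27 on the lower-intensity arrays.

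Lgals1, which encodes galectin-1, a lectin that binds glycans on activated T cells, was at 5.05, 6.16 and 5.15 on the arrays labelled Foxp3Cre/+Lkb1f/f, against 6.07, 6.35 and 5.08 on those labelled Foxp3Cre/+. The genotypes overlapped, with a difference of -0.38 (95% interval -1.39 to 0.63) over all arrays and -0.60 (95% interval -1.65 to 0.44) on the lower-intensity arrays. Leaving out each array in turn moved it between -0.76, without Foxp3Cre/+ replicate 3, and -0.12, without Foxp3Cre/+ replicate 2. On the Tgfbr2 side it was at 5.32, 5.98 and 6.25 on the arrays labelled Foxp3CreTgfbr2 f/f, against 6.20, 6.13 and 5.52 on those labelled Foxp3Cre, a difference of -0.10 (95% interval -0.79 to 0.59), and -0.049 on the lower-intensity arrays. The higher-intensity array was the lowest of both groups there and of Foxp3Cre/+. Of the 7 other galectins measured, 3 had a lower mean in the Lkb1 and 4 in the Tgfbr2 comparison, with median differences of 0.02 and -0.04.

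Tfpi, an inhibitor of the tissue factor pathway of coagulation, was at 0.01, -0.10 and 0.86 on the arrays labelled Foxp3Cre/+Lkb1f/f, against 0.17, 0.74 and 0.99 on those labelled Foxp3Cre/+. Each group had its highest value on the higher-intensity array. The difference was -0.38 (95% interval -1.17 to 0.41) over all arrays and -0.50 (95% interval -1.15 to 0.15) on the lower-intensity arrays, where the genotypes did not overlap. It was -0.20 without Foxp3Cre/+ replicate 3 or without Foxp3Cre/+Lkb1f/f replicate 2. On the Tgfbr2 side it was at 0.90, 0.62 and 0.23 on the arrays labelled Foxp3CreTgfbr2 f/f, against 0.65, 0.24 and 0.91 on those labelled Foxp3Cre. These ranges nearly coincide, with a difference of -0.02 (95% interval -0.59 to 0.55), the same to 2 decimals on the lower-intensity arrays.

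Gzmb, the granzyme that cleaves after aspartate and triggers caspases in target cells, varied most of all members, with an SD of 1.18 over 12 arrays. It was at 1.39, 3.72 and 3.77 on the arrays labelled Foxp3Cre/+Lkb1f/f, against 3.40, 4.46 and 3.54 on those labelled Foxp3Cre/+. A single knockout array was low, and the other 2 lay inside the control range. The difference was -0.84 (95% interval -2.42 to 0.74) over all arrays and -1.38 (95% interval -3.55 to 0.79) on the lower-intensity arrays, and without Foxp3Cre/+Lkb1f/f replicate 1 it was -0.05. For the Tgfbr2 knockout Gzmb was at 0.73, 3.59 and 4.33 on the arrays labelled Foxp3CreTgfbr2 f/f, against 3.99, 2.98 and 1.97 on those labelled Foxp3Cre. Again 1 knockout array stood low, replicate 1, which is a higher-intensity array. The difference was -0.10 (95% interval -2.36 to 2.16) over all arrays and 0.48 on the lower-intensity arrays.

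Gzma, a tryptase of the same granules, was at -0.08, 0.18 and 0.04 on the arrays labelled Foxp3Cre/+Lkb1f/f, against -0.33, 1.77 and 1.37 on those labelled Foxp3Cre/+. The knockout arrays sat close together near the array median, with 2 of 3 controls above them and 1 below. The difference was -0.89 (95% interval -2.12 to 0.34) over all arrays and -0.67 (95% interval -2.49 to 1.15) on the lower-intensity arrays. It was -1.53 without Foxp3Cre/+ replicate 1, the low control, and -0.48 without Foxp3Cre/+ replicate 2. On the Tgfbr2 side the values were -0.80, 0.33 and 0.18 on the arrays labelled Foxp3CreTgfbr2 f/f, against 0.66, 0.17 and -1.20 on those labelled Foxp3Cre, a difference of 0.03 (95% interval -1.19 to 1.25) over all arrays and -0.16 on the lower-intensity arrays. Both low values were on higher-intensity arrays.

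Prf1, which encodes perforin, was at 1.94, 1.27 and 1.25 on the arrays labelled Foxp3Cre/+Lkb1f/f, against 1.08, 1.36 and 2.00 on those labelled Foxp3Cre/+. The groups covered the same range, and the difference was 0.007 (95% interval -0.72 to 0.74). This mean joined a difference of 0.38 (95% interval -0.36 to 1.13) on the lower-intensity arrays and one of -0.75 between the single higher-intensity arrays. It was at 1.73, 0.98 and 1.30 on the arrays labelled Foxp3CreTgfbr2 f/f, against 1.43, 0.83 and 1.34 on those labelled Foxp3Cre, a difference of 0.14 (95% interval -0.45 to 0.73) over all arrays and 0.011 on the lower-intensity arrays. Both intervals over all arrays stayed within 1 on the log2 scale in either direction.

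On the lower-intensity arrays alone, 5 members had both knockout arrays below both controls in the Lkb1 comparison (Il10, Areg, Fgl2, Tfpi and Ebi3), where 14.9% of all transcript clusters did. None lay wholly above, where 14.3% did. In the Tgfbr2 comparison Fgl2 lay wholly below and Ebi3 wholly above, where 14.3% and 19.6% of all transcript clusters did. The median difference of the members on these arrays was -0.64 in the Lkb1 and 0.04 in the Tgfbr2 comparison. No member had an adjusted p under 0.05 on these arrays either (limma).

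Ordered by mean level, Foxp3Cre/+ stood highest of the 4 genotypes for Il10, Fgl2, Areg, Gzmb, Gzma and Tfpi, and Foxp3Cre/+Lkb1f/f stood lowest for Il10, Ebi3, Fgl2, Areg, Lgals1 and Tfpi. Neighbours in these orders overlapped for 9 of 10 members at every step. The exception was Fgl2, whose means were 0.83 ± 0.26 in Foxp3Cre/+Lkb1f/f and 1.02 ± 0.15 in Foxp3CreTgfbr2 f/f, below 1.53 ± 0.14 in Foxp3Cre/+ and 1.40 ± 0.12 in Foxp3Cre (SD, n = 3), with non-overlapping arrays at the step between Foxp3CreTgfbr2 f/f and Foxp3Cre.

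Regulators of these genes were examined as a list of 14 transcription factors. In the Lkb1 comparison 10 of 14 had a lower mean in the knockout, with a median difference of -0.37, 3 lay wholly below the controls and 1 wholly above, beside 53.1% with a lower mean, 2.05% wholly below and 1.76% wholly above among all transcript clusters. Between the Tgfbr2 genotypes 7 of 14 had a lower mean, with a median of 0.05, 1 lay wholly below and 0 wholly above, beside 46.9%, 2.13% and 2.81%. None passed the test in either comparison. Prdm1, which encodes Blimp-1, a factor needed for Il10 in effector Treg cells, was at 0.31, 1.62 and 2.23 on the arrays labelled Foxp3Cre/+Lkb1f/f, against 2.30, 2.55 and 2.49 on those labelled Foxp3Cre/+. All knockout arrays lay below the controls, with a difference of -1.06 (95% interval -2.15 to 0.04, limma adjusted p = 1.00, n = 3 per genotype). It was -0.52 without Foxp3Cre/+Lkb1f/f replicate 1, and -1.46 (95% interval -2.64 to -0.27) on the lower-intensity arrays. Its Tgfbr2 difference was -0.10, and -0.00046 on the lower-intensity arrays.

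Maf, which activates Il10 in several T cell subsets, was at 1.22, 3.29 and 3.31 on the arrays labelled Foxp3Cre/+Lkb1f/f, against 3.72, 4.04 and 3.29 on those labelled Foxp3Cre/+. It was at 1.08, 3.60 and 3.70 on the arrays labelled Foxp3CreTgfbr2 f/f, against 3.66, 3.57 and 2.78 on those labelled Foxp3Cre. Replicate 1 was the low array of both knockouts, as it was for Gzmb. The differences were -1.07 and -0.54, and -0.38 and 0.32 without the replicate 1 of the knockout concerned. They were -1.62 and 0.039 on the lower-intensity arrays. A second Maf transcript cluster, with a lower mean, was at -0.26, 1.24 and 3.06 on the arrays labelled Foxp3Cre/+Lkb1f/f, against 2.26, 3.05 and 2.73 on those labelled Foxp3Cre/+, so there replicate 2 of the knockout also lay below every control. That transcript cluster differed by -1.34 in the Lkb1 and -0.63 in the Tgfbr2 comparison. The promoters of Fgl2, Areg and Gzmb printed above each hold a Maf half-site, as do 16.1% of all promoters of this length. That of Tfpi holds the half-site too, and no promoter of Il10 was available to search. A link between these matches and the Maf levels was not tested.

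Ahr, the aryl hydrocarbon receptor, a ligand-activated factor that can drive Il10, was lower in both knockouts without overlap. It was at 1.40, 2.03 and 0.11 on the arrays labelled Foxp3Cre/+Lkb1f/f, against 2.48, 3.02 and 2.59 on those labelled Foxp3Cre/+, a difference of -1.51 (95% interval -2.64 to -0.39). It was at 0.99, 0.23 and 0.45 on the arrays labelled Foxp3CreTgfbr2 f/f, against 2.88, 1.94 and 1.89 on those labelled Foxp3Cre, a difference of -1.68 (95% interval -2.44 to -0.92). Neither passed the test (limma adjusted p = 1.00 in both, n = 3 per genotype). The Ahr differences on the lower-intensity arrays were -1.03 and -2.07, again without overlap. Tbx21, which encodes T-bet, had a higher mean by 0.50 in the Lkb1 comparison, without overlap, and by 0.61 in the Tgfbr2 comparison. Its differences on the lower-intensity arrays were 0.43 and 1.01, both without overlap, and the Tgfbr2 difference was 0.27 without Foxp3CreTgfbr2 f/f replicate 3. Atf3, a stress-induced factor of the AP-1 and CREB group, differed by -1.13 and 0.16, and by -1.55 and 0.32 on the lower-intensity arrays. Without Foxp3Cre/+ replicate 2 its Lkb1 difference was -0.59.

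**Figure D3:**
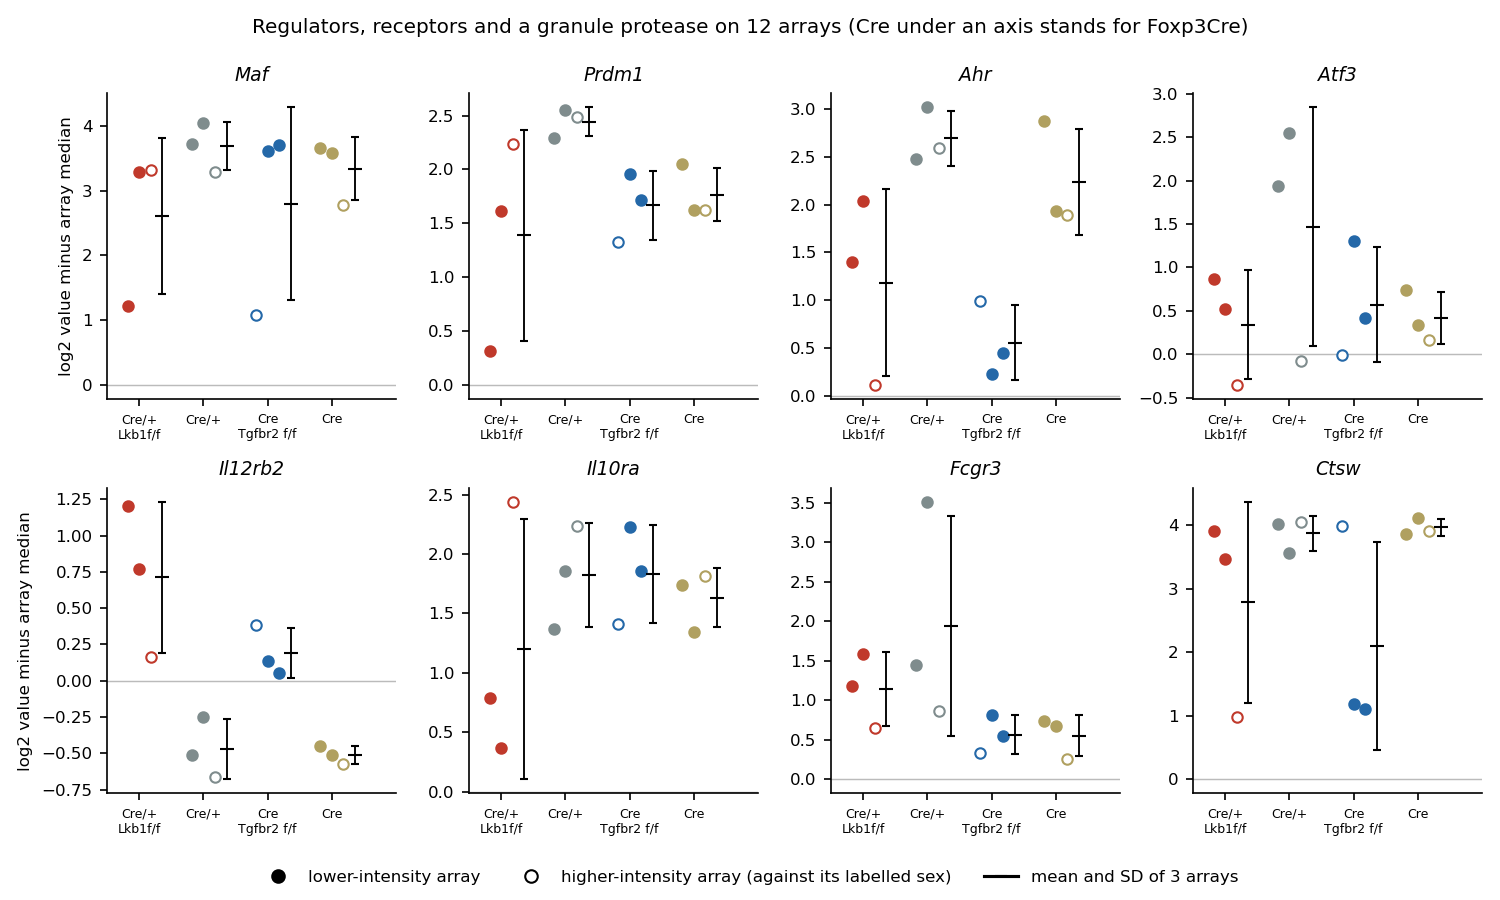
Regulators (Maf, Prdm1, Ahr, Atf3), receptors (Il12rb2, Il10ra, Fcgr3) and the granule protease Ctsw as log2 value minus array median (y axis) on the arrays of the 4 genotypes (x axis), filled for lower-intensity and open for higher-intensity arrays, with mean and SD of 3 arrays. Il12rb2 is higher and Ahr lower in both knockouts without overlap, and Ctsw is near 1 on 3 knockout arrays and between 3.46 and 4.11 on the other 9.

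Of 9 receptor genes for the members, 7 had a lower mean in the Lkb1 and 2 in the Tgfbr2 comparison, with median differences of -0.20 and 0.10, and none passed the test. Il12rb2, a receptor subunit for IL-12 and IL-35, was higher in both knockouts without overlap. It was at 1.20, 0.77 and 0.16 on the arrays labelled Foxp3Cre/+Lkb1f/f, against -0.51, -0.25 and -0.66 on those labelled Foxp3Cre/+, a difference of 1.19 (95% interval 0.50 to 1.87). It was at 0.38, 0.13 and 0.06 on the arrays labelled Foxp3CreTgfbr2 f/f, against -0.45, -0.51 and -0.58 on those labelled Foxp3Cre, a difference of 0.70 (95% interval 0.36 to 1.04). Both differences kept their direction without overlap on the lower-intensity arrays, at 1.37 and 0.58. Over all arrays 1.76% of transcript clusters lay wholly above the controls in the Lkb1 and 2.81% in the Tgfbr2 comparison.

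Il10ra, the ligand-binding chain of the IL-10 receptor, was at 0.79, 0.36 and 2.44 on the arrays labelled Foxp3Cre/+Lkb1f/f, against 1.37, 1.86 and 2.24 on those labelled Foxp3Cre/+. The 2 lower-intensity knockout arrays were below every control, and the difference was -0.62 (95% interval -1.91 to 0.66) over all arrays, -1.04 on the lower-intensity arrays and -0.21 without Foxp3Cre/+Lkb1f/f replicate 2. Its Tgfbr2 difference was 0.20, and 0.50 on the lower-intensity arrays. Fcgr2b and Fcgr3 encode the Fc receptors that bind Fgl2. Fcgr2b differed by -0.33 in the Lkb1 and -0.01 in the Tgfbr2 comparison, and Fcgr3 by -0.80 and 0.01. The Fcgr3 difference in the Lkb1 comparison rested on Foxp3Cre/+ replicate 2, at 3.51, and was -0.02 without that array. Fcgr2b differed by -0.24 and 0.029, and Fcgr3 by -1.10 and -0.019, on the lower-intensity arrays.

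Among 18 other granule genes measured of 19 listed, 11 had a lower mean in the Lkb1 and 6 in the Tgfbr2 comparison, with median differences of -0.04 and 0.05, and none passed the test. Ctsw, a cysteine protease of cytotoxic cells, had the largest difference of them in both. It was at 3.91, 3.46 and 0.97 on the arrays labelled Foxp3Cre/+Lkb1f/f, against 4.02, 3.55 and 4.04 on those labelled Foxp3Cre/+. It was at 3.98, 1.19 and 1.11 on the arrays labelled Foxp3CreTgfbr2 f/f, against 3.86, 4.11 and 3.91 on those labelled Foxp3Cre. Each knockout thus held arrays at the control level and arrays far below it, and the array that differed from the others of its genotype was the higher-intensity one in both. On the lower-intensity arrays the Ctsw difference was -0.10 in the Lkb1 and -2.84 in the Tgfbr2 comparison (adjusted p = 0.16 from limma, 2 arrays per genotype).

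Of 9 other EGF family ligands and sheddases, 6 had a lower mean in the Lkb1 and 4 in the Tgfbr2 comparison, with medians of -0.10 and 0.02. Of 11 coagulation genes chosen as partners of Tfpi and Fgl2, 6 and 9 had a lower mean, with medians of -0.05 in both. The largest difference in this list was that of F2rl1, a protease-activated receptor, which was at 0.89, 1.42 and 2.08 on the arrays labelled Foxp3Cre/+Lkb1f/f, against 2.44, 1.99 and 2.77 on those labelled Foxp3Cre/+. The genotypes overlapped slightly, with a difference of -0.93 (95% interval -1.76 to -0.11). F2rl1 was named from the same study list as Areg, which holds genes reported as altered on these arrays. F2rl1 was thus measured here only because it had been reported as altered. It differed by -0.34 in the Tgfbr2 comparison, and by -1.06 and -0.46 on the lower-intensity arrays, in both without overlap.

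Gzmb, Areg and Il10 had the largest SDs of the members over the 12 arrays, at 1.18, 1.15 and 1.13. Among 22180 genes the pattern nearest to that of Gzmb, by root mean square distance between centred profiles over the 12 arrays, was Maf at 0.44, followed by Adam8 at 0.48 and Atp2b4 at 0.53, against a root mean square of 1.13 for Gzmb about its own mean. Nearest to Il10, itself at 1.09, were Il1r2 and Scpep1, both at 0.54, and Maf at 0.56. Nearest to Areg, itself at 1.10, were Spty2d1 and Gem, both at 0.50, and Cxcl2 at 0.51. The 12 arrays share the step between intensity sets, and the distances are a description only.

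Markers of other cell types were read on the same arrays. All 16 macrophage and monocyte markers averaged lower on the arrays labelled Foxp3Cre/+Lkb1f/f than on those labelled Foxp3Cre/+, with a median difference of -0.87. Their summed level was at 5.12, 5.56 and 4.73 on the arrays labelled Foxp3Cre/+Lkb1f/f, against 5.65, 7.98 and 4.55 on those labelled Foxp3Cre/+. Foxp3Cre/+ replicate 2 was highest of its group for all 16 markers and for 6 of the 10 members, namely Il10, Areg, Gzmb, Gzma, Fgl2 and Lgals1. Without that array the Lkb1 differences were -1.01 for Il10, -0.85 for Areg, -0.62 for Fgl2, -0.51 for Gzmb, -0.48 for Gzma and -0.12 for Lgals1. The part of the macrophage markers in these differences was not tested. In the Tgfbr2 comparison 5 of 16 of these markers had a lower mean, and their sum was between 3.97 and 4.45 on the arrays labelled Foxp3CreTgfbr2 f/f and between 3.99 and 4.47 on those labelled Foxp3Cre.

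All 9 B cell markers averaged lower on the arrays labelled Foxp3Cre/+Lkb1f/f than on those labelled Foxp3Cre/+. On the lower-intensity arrays 4 of 9 did. Their summed level was at 2.73, 2.75 and 4.49 on the arrays labelled Foxp3Cre/+Lkb1f/f, against 3.09, 3.28 and 4.91 on those labelled Foxp3Cre/+. Both higher-intensity arrays thus stood above the rest. The same 2 arrays had the highest sums of 7 neutrophil markers, at 3.35 and 3.64, against 1.65 to 2.32 on the other 10 arrays. Natural killer cells share Gzma, Gzmb and Prf1 with Treg cells. Of 6 natural killer markers, 4 were under the array median on all 12 arrays, and the sum stayed between 1.80 and 2.25. The 2 markers of CD8 T cells summed to 2.25 to 3.41.

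**Figure D4:**
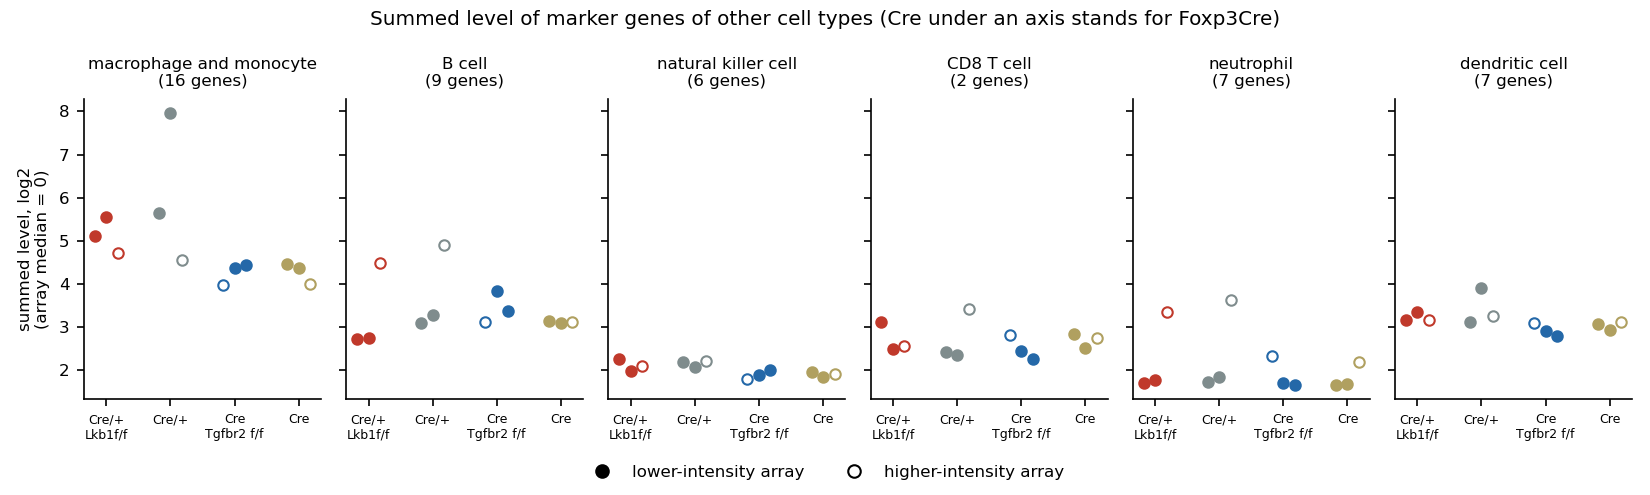
Summed level of the marker genes of 6 other cell types, as log2 of the sum on the scale where the array median is 0 (y axis), on the arrays of the 4 genotypes (x axis), filled for lower-intensity and open for higher-intensity arrays. Foxp3Cre/+ replicate 2 stands apart for macrophage and monocyte markers at 7.98, and the higher-intensity arrays of the Lkb1 pair stand apart for neutrophil and B cell markers.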

How the data were processed

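Transcript levels were measured on 12 arrays, 3 per genotype. The authors used Agilent GeneSpring GS 11 and deposited log2 values from 1.94 to 14.0 of 41345 transcript clusters; how they were summarized and normalized was not given in the sources used here. Precision is limited by the number of arrays. Members and gene lists were chosen with earlier results of these data known, and some members were named by the study from the same arrays. Of the transcript clusters 23521 carry 1 symbol, 1820 several (left unnamed) and 16004 none. Where several transcript clusters cover a gene, the highest by mean was read.

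Each array was centred on its median. limma 3.58.1 in R 4.3.3 (lmFit, eBayes) compared each knockout with its control over 6 arrays without covariate or filter. P-values were adjusted by Benjamini-Hochberg over the whole table, with 0.05 as the limit, and the knockout effects were compared by a contrast over 12 arrays. A two-sided exact permutation test was run per gene. The fit was tested on simulated data. Named beside the members were up to 4 genes of each list with the largest difference, and partners, receptors and inhibitors. Summed marker levels add linear values. Intensity sets were divided at a deposited median of 6.

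Whether replicate numbers mark pairs was judged from deviations from the group means. Same-numbered arrays correlated at 0.39, 0.30 and 0.74 in the Lkb1 pair, which leaves pairing possible there. These values do not settle it: the higher-intensity arrays gave the 0.74, and Foxp3Cre/+Lkb1f/f replicate 2 was closer to Foxp3Cre/+ replicate 1 (0.45). The intervals and p-values given for the Lkb1 comparison are unpaired, and the replicate block was run only as an alternative. With that block limma gave 1483 transcript clusters at an unadjusted p under 0.05 in the Lkb1 comparison, and 0 after adjustment. This count too is under a share of 0.05 of all transcript clusters. In the Tgfbr2 pair r was -0.52, 0.23 and -0.57. Alternatives were the values as deposited, quantile normalization, blocks for replicate and intensity set, the lower-intensity arrays alone, all 12 arrays in one model, a trend and robust prior, array weights, the methods' t-test, filters and leaving out each array.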

Additional observations from a re-analysis of the deposited data

How the results depend on the processing

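No alternative gave an adjusted p under 0.05 for any member, and the count of transcript clusters called was 0 in each comparison under every alternative. Of 233 member values under settings other than leaving out an array, 220 kept their direction and 13 did not. With the replicate block the differences are the same by construction (Il10 in the Lkb1 comparison -1.44, Fgl2 -0.70) and no call changed. On the lower-intensity arrays the Tgfbr2 difference was 0.13 for Il10, 0.27 for Areg, 0.48 for Gzmb, -0.16 for Gzma, 0.029 for Fcgr2b, -0.019 for Fcgr3 and 0.039 for Maf, each of the other sign than over all arrays, and the Lkb1 effect minus the Tgfbr2 effect was 0.090 for Il12a and 0.37 for Prf1. With array weights the Tgfbr2 difference was 0.12 for Il10, 0.34 for Gzmb, -0.14 for Gzma, 0.023 for Fcgr2b and -0.034 for Fcgr3, the Lkb1 difference of Il12b was -0.064, and the difference of the effects was 0.15 for Il12a and 0.30 for Prf1. Quantile normalization gave -0.014 for Il12a in the Lkb1 comparison and -0.0035 for Fcgr3 in the Tgfbr2 comparison, and the mean of both Ebi3 transcript clusters gave 0.054 in the Lkb1 comparison. The cause was not tested.

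Leaving out each array in turn turned the sign of 35 of 240 member values. Over these fits the Lkb1 difference ran from -0.65 to 0.28 for Ebi3, -0.13 to 0.12 for Il12a, -0.22 to 0.27 for Prf1, -0.10 to 0.093 for Il12b and -0.35 to 0.033 for Il27. The Tgfbr2 difference ran from -0.76 to 0.76 for Il10, -0.017 to 0.18 for Il12a, -0.93 to 0.67 for Areg, -0.82 to 0.98 for Gzmb, -0.51 to 0.42 for Gzma, -0.060 to 0.32 for Prf1, -0.31 to 0.16 for Lgals1, -0.20 to 0.16 for Tfpi, -0.075 to 0.077 for Fcgr2b, -0.14 to 0.13 for Fcgr3, -0.99 to 0.32 for Maf, -0.25 to 0.069 for Prdm1 and -0.20 to 0.45 for Atf3. The difference of the effects ran from -0.22 to 0.024 for Il12a, -1.82 to 0.044 for Gzmb and -0.36 to 0.13 for Prf1. Both Fgl2 differences kept their sign under each alternative, as did the Lkb1 differences of Il10, Areg, Gzmb, Gzma, Lgals1 and Tfpi. How far each probe's signal stood above background is not known from these values.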
